A study of Rattus norvegicus with 10 samples.

Results

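The receptors described here are 9 G protein-coupled receptors for noradrenaline, adrenaline and dopamine: the alpha1 receptors Adra1a, Adra1b and Adra1d, the alpha2 receptors Adra2a, Adra2b and Adra2c, the beta receptor Adrb1, and the dopamine receptors Drd1 and Drd2. They were chosen by name, as every probe set that the annotation of the array assigns to one of these genes alone, which gave 13 probe sets for the 9 genes out of 31042 probe sets and 14217 named genes. RNA came from the NTS, or nucleus tractus solitarii, the part of the brainstem where baroreceptor afferents end, of 5 samples of the spontaneously hypertensive rat (SHR), which is inbred and becomes hypertensive, and 5 of the Wistar-Kyoto rat (WKY), its normotensive control strain. All animals were male and 10 to 13 weeks old, and no drug or other treatment is stated for either strain. Each sample was hybridised to 1 Affymetrix Rat 230 2.0 array. The design text treats an array as 1 biological replicate while the sample descriptions name 5 animals, so an array may hold a pool, and each p-value reflects only the spread among these samples. The strains differ in much more than blood pressure, and what is due to pressure and what to other strain differences cannot be told apart here. In dissected tissue, fewer cells of a type and less RNA per cell cannot be told apart.

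Catecholamine receptors fall into classes by the G protein they engage. Alpha1 receptors couple to Gq and raise phospholipase C activity, alpha2 receptors and Drd2 couple to Gi and Go and lower cyclic AMP, and Adrb1 and Drd1 couple to Gs or Golf and raise it. The NTS holds noradrenergic neurons of its own and receives catecholamine input, and alpha2A receptors of the brainstem are known from work in mice to carry the pressure-lowering effect of drugs such as clonidine.

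Promoter sequence was one feature the choice of genes did not use. Windows of 300 bases, from 250 before to 50 after the annotated start in RefSeq (build GRCr8), were matched for 8 of the 9 genes, all but Adra1a. In the Adra2a window the last 50 bases begin with atg and hold no stop codon in that frame. The annotated start of Adra2a may thus be that of translation, and its window may hold transcribed sequence in place of promoter. The 4 genes with a probe set bright enough to be tested are shown, since the strain comparison turns on them. Capitals mark the letters GGGCGG, the core of the GC box bound by Sp1-type factors, on either strand, so that a match on the opposite strand reads CCGCCC. Positions are chr10:28814298-28814597 on the minus strand for Adra1b, chr1:263066530-263066829 on the plus strand for Adra2a, chr14:79697427-79697726 on the minus strand for Adra2c and chr8:58605153-58605452 on the plus strand for Drd2.
Adra1b: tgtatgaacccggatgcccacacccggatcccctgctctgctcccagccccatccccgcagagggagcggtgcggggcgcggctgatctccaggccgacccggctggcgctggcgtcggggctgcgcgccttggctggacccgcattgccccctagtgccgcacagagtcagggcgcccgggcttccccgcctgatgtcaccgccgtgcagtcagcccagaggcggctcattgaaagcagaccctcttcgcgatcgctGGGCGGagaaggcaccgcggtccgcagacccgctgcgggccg
Adra2a: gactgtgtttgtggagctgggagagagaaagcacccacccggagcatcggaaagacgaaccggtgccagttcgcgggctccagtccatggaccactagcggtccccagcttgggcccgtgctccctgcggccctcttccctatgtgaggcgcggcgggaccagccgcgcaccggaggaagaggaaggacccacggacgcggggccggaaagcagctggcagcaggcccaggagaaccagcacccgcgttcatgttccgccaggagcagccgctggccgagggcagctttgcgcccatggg
Adra2c: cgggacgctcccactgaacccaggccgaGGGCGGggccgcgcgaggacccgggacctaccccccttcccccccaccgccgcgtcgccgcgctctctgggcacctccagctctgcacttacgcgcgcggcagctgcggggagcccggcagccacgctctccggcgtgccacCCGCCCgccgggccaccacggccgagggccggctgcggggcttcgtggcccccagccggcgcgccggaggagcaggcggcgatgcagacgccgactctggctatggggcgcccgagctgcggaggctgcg
Drd2: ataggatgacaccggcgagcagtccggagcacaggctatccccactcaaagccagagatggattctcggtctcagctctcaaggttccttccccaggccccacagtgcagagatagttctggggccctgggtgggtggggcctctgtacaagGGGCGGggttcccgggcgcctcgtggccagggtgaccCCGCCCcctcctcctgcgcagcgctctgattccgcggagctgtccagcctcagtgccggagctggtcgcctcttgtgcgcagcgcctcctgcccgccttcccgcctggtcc

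These windows were rich in G and C. GC content was 72.0% for Adra1b, 68.0% for Adra2a, 79.0% for Adra2c and 67.3% for Drd2, and over the 8 matched genes it ran from 51.7% in Drd1 to 79.0% in Adra2c with a median of 68.3%. All 33465 promoter windows of the table had a median of 51.7%. The letters GGGCGG stood in 4 of the 8 windows (Adra1b, Adra2b, Adra2c and Drd2), against 33.1% of all windows. TATAAA, the TATA box, was in 0 of the 8 against 14.2% of all windows, and TGACGTCA, the full cyclic AMP response element, in 0 of the 8 against 1.83%. The shares over all windows were not matched for GC content, and 8 windows are few for such counts. The Adra2a window, which may not be promoter, is among the 8 and held none of these motifs. Both strands were searched, and no matches overlapped one another. A match describes letters and is not a binding site, and the array data say nothing of binding.

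No receptor probe set passed the test for a strain difference. Signals were taken on the log2(signal + 16) scale and compared with limma, and a Benjamini-Hochberg adjusted p below 0.05 over all tested probe sets was required. A probe set was tested where at least 5 of the 10 arrays reached that array's 40th percentile of signal. Of the 13 receptor probe sets 5 did so, from 4 genes: 1 for Adra1b, 2 for Adra2a, 1 for Adra2c and 1 for Drd2. Of these 5, 0 passed the threshold, while 4.26% of the 18846 tested probe sets did. At an unadjusted p below 0.05 there was 1 of 5, against 21% of all tested probe sets, and 3 of 5 had a difference above 0, against 54%. The other 8 probe sets, for Adra1a, Adra1d, Adra2b, Adrb1 and Drd1, were too dim for the filter, and without a filter 0 of all 13 passed (limma, lowest adjusted p = 0.128), against 2.18% of all 31042. At an unadjusted p below 0.05 in limma there was 1 of these 8, against 15.2% of the probe sets below the filter. Low signal on an array does not show that a receptor is absent from the tissue, since detection calls were not used here.

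**Figure D1:**
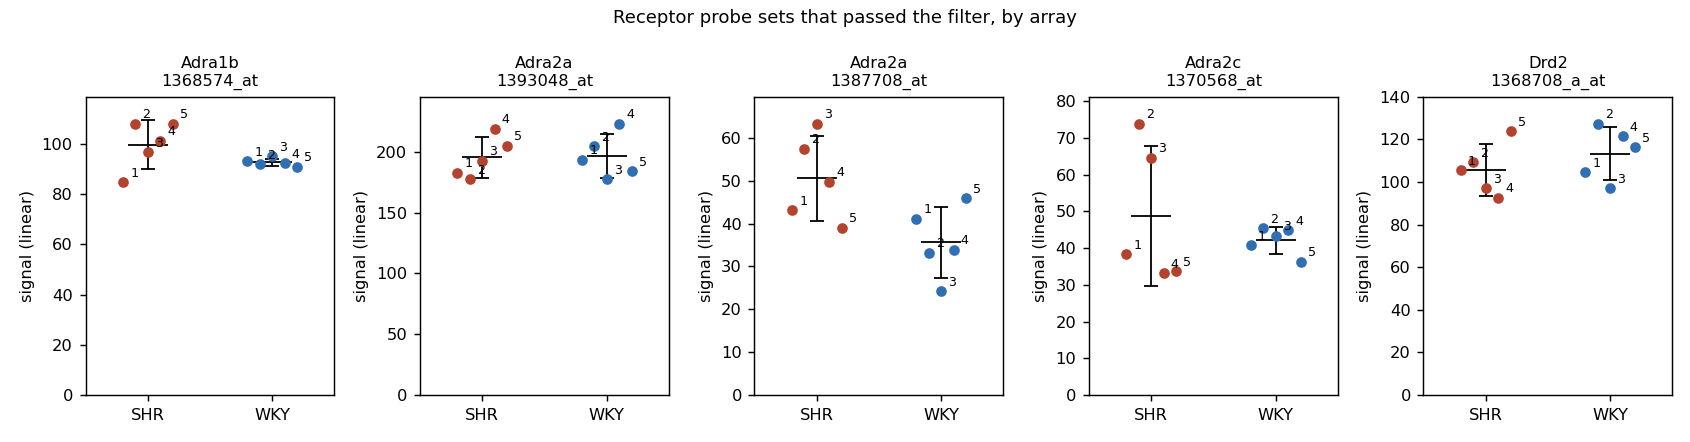
Signal (linear scale, y axis from 0) of the 5 receptor probe sets that passed the filter, on each of 5 SHR and 5 WKY arrays; numbers name the array, and the bar and whiskers are the mean and SD. The strains overlap in all 5 panels, and the Adra2a panel of 1387708_at has 3 SHR arrays above every WKY array.

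Among the alpha1 receptors, Adra1b (probe set 1368574_at) was the one that could be tested. It had signals of 84.8, 108, 96.8, 101 and 108 on SHR arrays, against 93.2, 92.0, 95.1, 92.3 and 91.0 on WKY arrays. Of the SHR arrays 4 lay above every WKY array, and SHR 1 lay below every WKY array. The mean was 99.9 ± 9.68 on SHR arrays and 92.7 ± 1.54 on WKY arrays (SD, n = 5 each), so the WKY arrays were more tightly grouped. The log2 difference was 0.088 ± 0.083 (SE), with a 95% confidence interval from -0.087 to 0.26 and an adjusted p of 0.578 in limma.

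The remaining alpha1 receptors had low signals. Adra1d (1368534_at) had 4.60, 5.74, 6.04, 6.64 and 3.60 on SHR arrays, against 3.34, 3.55, 2.54, 4.03 and 2.46 on WKY arrays. All but SHR 5 stood above every WKY array, and the log2 difference was 0.15 ± 0.073 (limma without a filter, unadjusted p = 0.0573, adjusted p = 0.291). A two-sided exact permutation test over the 252 assignments of arrays to strains gave 0.0159, not adjusted for the number of probe sets. Because both strains lay far below the offset of 16, this scale compresses the change. Adra1a (1369797_at) ranged from 4.80 to 40.2 on SHR arrays and from 4.51 to 26.2 on WKY arrays, with medians of 10.8 on SHR arrays and 13.7 on WKY arrays. One array, SHR 3, stood apart at the top of that range, and the log2 difference was -0.090 ± 0.26 (limma adjusted p = 0.887).

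Adra2a encodes the alpha2A receptor, a Gi-coupled autoreceptor of noradrenergic neurons and a target of clonidine. It was measured by 2 probe sets, both above the filter. On 1393048_at the signals were 183, 177, 193, 219 and 205 on SHR arrays, against 194, 205, 178, 223 and 184 on WKY arrays. The strains lay over the same range, with means of 196 ± 17.1 on SHR arrays and 197 ± 18.1 on WKY arrays (SD, n = 5 each). The log2 difference was -0.0074 ± 0.078 (95% confidence interval -0.17 to 0.16; limma adjusted p = 0.970).

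On the second Adra2a probe set, 1387708_at, the signals were 43.1, 57.4, 63.3, 49.8 and 39.1 on SHR arrays, against 41.2, 33.2, 24.2, 33.9 and 45.9 on WKY arrays. SHR 2, SHR 3 and SHR 4 were above every WKY array, and SHR 1 and SHR 5 lay within the WKY range. Means were 50.5 ± 9.98 on SHR arrays and 35.7 ± 8.29 on WKY arrays, a log2 difference of 0.37 ± 0.14 or 1.29-fold (95% confidence interval 1.05 to 1.59). This was the receptor probe set above the filter with an unadjusted p below 0.05 (0.0191 in limma; 0.0397 in a two-sided exact permutation test over the 252 assignments), and it did not pass over all probe sets (adjusted p = 0.147). SHR 2 and SHR 3 were also the arrays with the highest median signal. Without them the log2 difference was 0.23 and with the median signal as a covariate 0.35, and the part of signal level in the difference was not tested.

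Whether both Adra2a probe sets differed from one another in their strain effect was tested on the ratio between them within each array. The log2 value of 1387708_at minus that of 1393048_at was -1.68 ± 0.27 on SHR arrays and -2.05 ± 0.26 on WKY arrays (SD, n = 5 each), a difference of 0.37 with an exact permutation p of 0.0635. Adjusted over the 5 pairs of probe sets compared within Adra2a, Adra2b and Drd1 this was 0.159, so the probe sets were not shown to disagree. Their deviations from the strain means had an r of -0.082 over the 10 arrays.

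**Figure D2:**
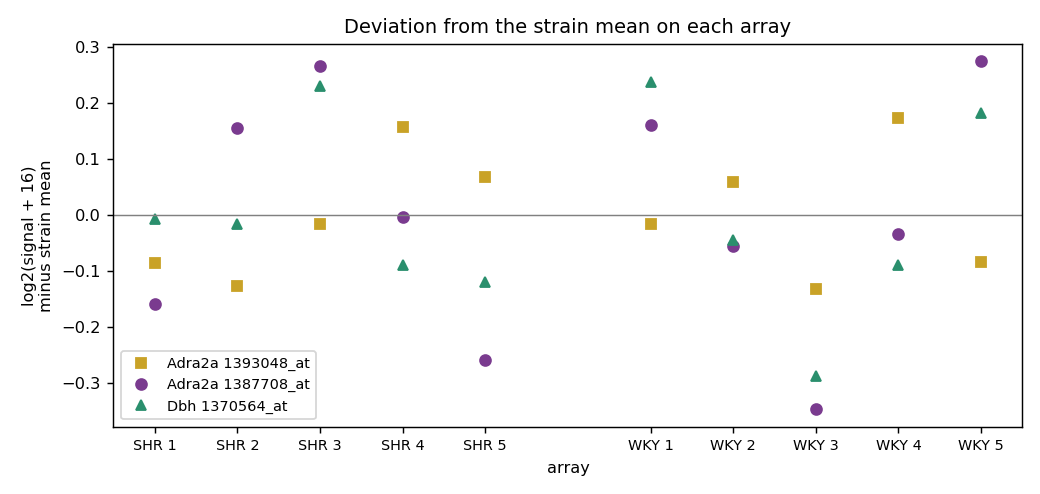
Deviation of log2(signal + 16) from the strain mean (y axis, log2 units) on each array (x axis) for both Adra2a probe sets and for Dbh. Adra2a 1387708_at and Dbh are both high on SHR 3, WKY 1 and WKY 5 and both low on WKY 3, while Adra2a 1393048_at is highest on WKY 4.

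Adra2b, the alpha2B receptor of vessels and parts of the brain, had 3 probe sets, all below the filter. On 1380171_at the signals were 12.8, 12.9, 16.3, 19.8 and 20.3 on SHR arrays, against 11.0, 11.7, 2.95, 6.13 and 10.8 on WKY arrays. Every SHR array was above every WKY array, the one receptor probe set of the 13 without overlap. Such separation was found for 5.3% of all probe sets and 4.01% of those below the filter. The log2 difference was 0.41 ± 0.13 (95% confidence interval 0.13 to 0.70), with an unadjusted p of 0.00819 and an adjusted p of 0.128 in limma without a filter. The exact permutation test gave 0.00794, the smallest p that 252 assignments allow. Its direction is shared by most dim probe sets: 71.8% of the 12196 probe sets below the filter had a difference above 0, and 12.7% were higher in SHR at an unadjusted p below 0.05.

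The other Adra2b probe sets overlapped between the strains. On 1396853_at signals ran from 2.64 to 7.13 on SHR arrays and from 1.43 to 6.06 on WKY arrays (log2 difference 0.11 ± 0.091; limma adjusted p = 0.548). On 1370567_at they ran from 2.79 to 12.6 on SHR arrays and from 2.47 to 8.60 on WKY arrays (0.045 ± 0.12; limma adjusted p = 0.880). The difference of 1380171_at exceeded that of 1370567_at by 0.37 and that of 1396853_at by 0.30, with exact permutation p of 0.0397 and 0.175, or 0.159 and 0.291 adjusted over the 5 pairs.

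Adra2c, the alpha2C receptor, is a Gi-coupled receptor found on catecholamine terminals and on other neurons. It had signals of 38.3, 73.9, 64.6, 33.1 and 33.7 on SHR arrays, against 40.9, 45.4, 43.3, 44.9 and 36.4 on WKY arrays. SHR 2 and SHR 3 were above every WKY array, and SHR 4 and SHR 5 were below every WKY array. The mean of 48.7 ± 19.1 on SHR arrays against 42.2 ± 3.71 on WKY arrays thus rested on 2 arrays. The log2 difference was 0.11 ± 0.16 (95% confidence interval -0.24 to 0.45; limma adjusted p = 0.748). Without SHR 2 and SHR 3, the arrays of highest median signal, it was -0.19, and -0.20 when array median signal entered as a covariate.

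Adrb1, the beta1 receptor, couples to Gs. Its probe set 1369806_at was below the filter, at 3.19 to 23.5 on SHR arrays and 9.06 to 18.9 on WKY arrays, with medians of 8.04 on SHR arrays and 16.6 on WKY arrays. Arrays SHR 1 and SHR 5 were above every WKY array and the other 3 below every WKY array. The log2 difference was -0.15 ± 0.20 (limma without a filter, adjusted p = 0.721).

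**Figure D3:**
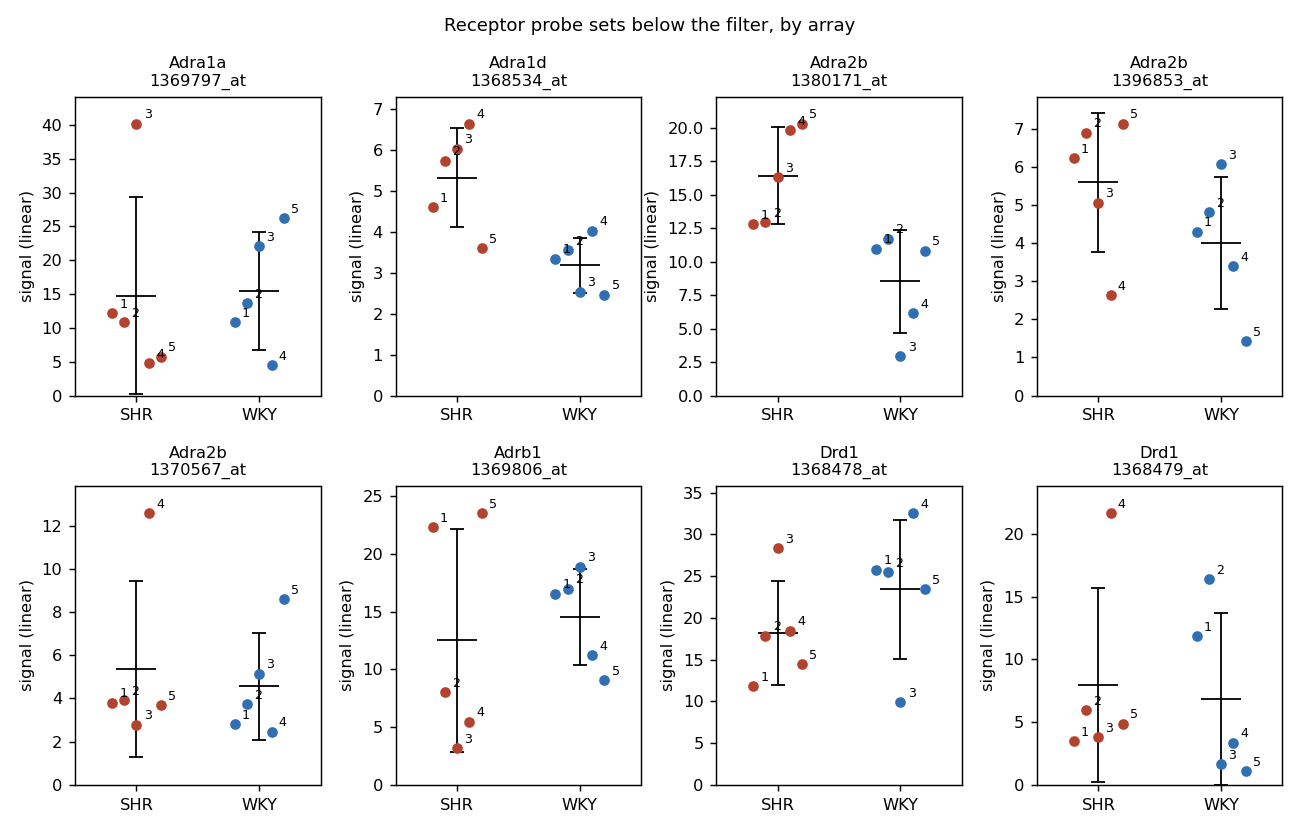
Signal (linear scale; each panel has its own y axis) of the 8 receptor probe sets below the filter, on each of 5 SHR and 5 WKY arrays; numbers name the array, and the bar and whiskers are the mean and SD. Adra2b 1380171_at is the panel in which all 5 SHR arrays lie above all 5 WKY arrays.

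Drd2 encodes the Gi-coupled D2 receptor. Its probe set 1368708_a_at carries the suffix Affymetrix gives to sets that match several transcripts of a gene, so the long and short receptor forms were not separated. Signals were 106, 109, 97.2, 92.7 and 124 on SHR arrays, against 105, 127, 97.2, 122 and 116 on WKY arrays. SHR 3 and SHR 4 lay just below or below the lowest WKY array, and the rest of the SHR arrays fell within the WKY range. Means were 106 ± 12.1 on SHR arrays and 113 ± 12.3 on WKY arrays (SD, n = 5 each), a log2 difference of -0.088 ± 0.093 (95% confidence interval -0.28 to 0.11; limma adjusted p = 0.623).

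Drd1, the Gs- and Golf-coupled D1 receptor, had 2 probe sets below the filter. On 1368478_at signals ran from 11.9 to 28.3 on SHR arrays and from 9.88 to 32.5 on WKY arrays, with medians of 17.9 on SHR arrays and 25.5 on WKY arrays. The log2 difference was -0.19 ± 0.18 (limma without a filter, adjusted p = 0.596). On 1368479_at they ran from 3.48 to 21.7 on SHR arrays and from 1.04 to 16.4 on WKY arrays, with a log2 difference of 0.069 ± 0.21 (limma adjusted p = 0.896). The difference between both probe sets in strain effect, -0.26, was within the spread of the arrays (exact permutation p = 0.421).

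**Figure D4:**
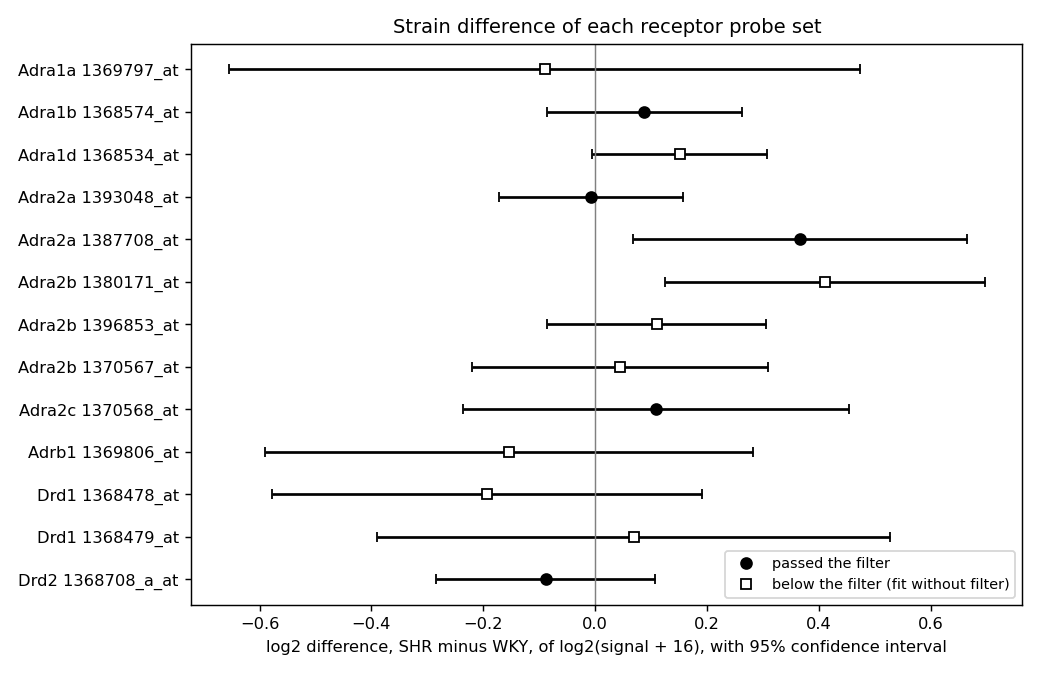
Log2 difference of SHR minus WKY (x axis) with its 95% confidence interval for each of the 13 receptor probe sets; filled circles passed the filter and open squares come from the fit without a filter. The intervals of Adra2a 1387708_at and Adra2b 1380171_at lie above 0 and the other 11 include 0.

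Over the 5 tested receptor probe sets the median log2 difference was 0.088, with 3 above and 2 below 0, beside a median of 0.016 over all 18846 tested. Over the 8 dim ones it was 0.057, with 5 above and 3 below 0, beside 0.094 over all 12196 dim probe sets. The median SE was 0.093 for the tested receptor probe sets and 0.16 for the dim ones, but SE did not follow signal from one probe set to the next. It ran from 0.078 (Adra2a 1393048_at) to 0.16 (Adra2c) over the tested ones. Over the dim ones it ran from 0.073 (Adra1d) to 0.26 (Adra1a). The smallest SE was thus that of Adra1d, whose signals lay far below the offset and were compressed by this scale. Within a strain, the SD was 1.66% to 39.2% of the mean for the tested probe sets and 21.1% to 100.4% for the dim ones.

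The genes whose pattern was most like that of each tested receptor probe set were sought by Pearson correlation over the 10 arrays, after the strain means were subtracted, among 10664 other genes. For Adra2a 1387708_at they were Gask1b (r = 0.90) and Dbh (r = 0.87), the gene of dopamine beta-hydroxylase, which makes noradrenaline. Dbh had 270, 268, 321, 254 and 248 on SHR arrays, against 393, 320, 268, 310 and 377 on WKY arrays. Within SHR both Dbh and this Adra2a probe set were highest on SHR 3, and within WKY both were lowest on WKY 3 and high on WKY 1 and WKY 5. Between the strains their differences had opposite signs, with a log2 difference of -0.27 ± 0.095 for Dbh (limma adjusted p = 0.114), and the second Adra2a probe set did not follow Dbh (r = -0.13). For Th, the tyrosine hydroxylase gene, r with 1387708_at was 0.59.

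The nearest genes of Adra2a 1393048_at were Usp35 (r = 0.90) and Fkbpl (0.89), those of Adra1b Akr7a3 and Tom1l1 (both 0.93), those of Adra2c Ptpn21 and Asic2 (both 0.98) and those of Drd2 Pacs1 and Map4 (both 0.95). Of these 10 genes, Gask1b was higher in SHR (82.6 against 56.8 on WKY arrays; log2 difference 0.44; limma adjusted p = 0.0141), and the others did not pass. High values are common with 10 arrays: the best partner of a tested gene had a median r of 0.95, with 5th and 95th percentiles of 0.91 and 0.98. The best partners of Adra1b, Adra2c and Drd2 lay within these percentiles. Those of both Adra2a probe sets (0.905 and 0.902) lay below the 5th, and Dbh (0.87) was lower still. All these values are descriptions and say nothing of shared control.

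Genes that act with the receptors were followed in 7 lists holding 90 genes, of which 75 were tested on the brightest kept probe set. In these lists 1 gene was higher and 2 were lower in SHR (limma, adjusted over all tested probe sets), against 3.98% of the 10668 genes tested (1.67% higher and 2.32% lower). The median log2 difference was 0.017, beside 0.0020 over all genes tested.

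Gnas, Gnaz and Ppp1r1b were the 3 genes. Gnas encodes the alpha subunit of Gs, through which Adrb1 signals, and had 4628, 6016, 6878, 6113 and 5195 on SHR arrays, against 3913, 4656, 4748, 3803 and 4493 on WKY arrays. SHR 1 lay within the WKY range and the other 4 above it (log2 difference 0.41 ± 0.095; limma adjusted p = 0.0202). A second kept probe set, 1387906_a_at, was higher by 0.40 ± 0.073 (limma adjusted p = 0.00371). With quantile normalization the second was still higher by 0.31 (limma adjusted p = 0.00675), while the brighter turned to -0.023 (adjusted p = 0.779), and without SHR 2 and SHR 3 the brighter did not pass (0.29; adjusted p = 0.132) while the second did (0.40; adjusted p = 0.0180). The call of the brighter also ended without a filter (limma adjusted p = 0.0763) and when SHR 2, WKY 1 or WKY 4 was left out, so that it held in 7 of 10 such fits (log2 difference 0.34 to 0.48). The second kept its call in all of these.

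Gnaz encodes the alpha subunit of Gz, a Gi-family protein. It had 123, 106, 107, 90.4 and 120 on SHR arrays, against 142, 137, 152, 147 and 155 on WKY arrays. No SHR array reached the lowest WKY array, a pattern shown by 6.13% of tested probe sets, and the log2 difference was -0.38 ± 0.084 (limma adjusted p = 0.0141). A second kept probe set, 1387095_at, differed by 0.20 ± 0.12 the other way (limma adjusted p = 0.357), and the mean of both did not pass (adjusted p = 0.580). Without SHR 2 and SHR 3 the brighter probe set was just outside the threshold (-0.37; limma adjusted p = 0.0548).

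Ppp1r1b encodes DARPP-32, an inhibitor of protein phosphatase that D1 receptors act on through cyclic AMP. It had 87.9, 106, 82.9, 78.4 and 71.2 on SHR arrays, against 141, 104, 122, 181 and 116 on WKY arrays. All but SHR 2 were below every WKY array, and the log2 difference was -0.55 ± 0.12 (limma adjusted p = 0.0171). With the median signal as a covariate the calls of Ppp1r1b and Gnaz ended while their log2 differences stayed close, at -0.53 (limma adjusted p = 0.229) and -0.32 (adjusted p = 0.262). Under the covariate the brighter Gnas probe set stood at 0.24 (limma adjusted p = 0.498) and the second at 0.54, still past the threshold (adjusted p = 0.00397). The neuron marker Snap25 was also higher in SHR, at 3739 ± 536 on SHR arrays and 2952 ± 299.7 on WKY arrays (0.33 ± 0.091; limma adjusted p = 0.0480; 0.13 and 0.141 with quantile normalization). It was the 1 of 6 neuron markers past the threshold. Of the 6, 5 had a difference above 0 and 1 below (Tubb3, -0.070), with a median of 0.096. The part of cell makeup in the differences of Gnas, Gnaz, Ppp1r1b and Snap25 was not tested.

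**Figure D5:**
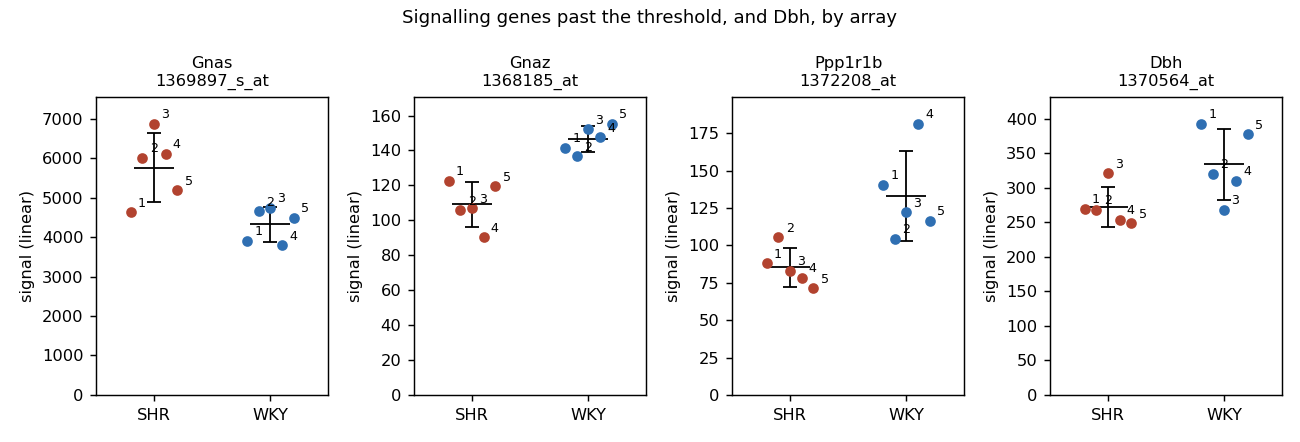
Signal (linear scale, y axis from 0) of Gnas, Gnaz and Ppp1r1b, the genes of the signalling lists past the threshold, and of Dbh, on each of 5 SHR and 5 WKY arrays; numbers name the array, and the bar and whiskers are the mean and SD. Gnaz is the panel in which the strains do not overlap.

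By list, the G protein subunits held 1 higher and 1 lower of 14 tested (Gnas and Gnaz; median log2 difference -0.11) and the cyclic AMP arm 0 higher and 1 lower of 18 (Ppp1r1b; median 0.012). The other lists held 0 of 11 genes of catecholamine synthesis, transport and breakdown, 0 of 9 of the phospholipase C arm, 0 of 5 receptor kinases and arrestins, 0 of 12 RGS proteins and 0 of 6 channels gated by Gi-coupled receptors (limma). At an unadjusted p below 0.05 there were 7 of 14 G protein subunits and 4 of 18 genes of the cyclic AMP arm. Over all the lists there were 17 of 75, against 20.1% of all genes tested. The other 5 lists, in the order above, held 4, 1, 0, 1 and 0 such genes. Their genes of lowest p were Dbh, the kinase C gene Prkca (log2 difference 0.32 ± 0.12; limma adjusted p = 0.147), the arrestin gene Arrb2 (-0.14 ± 0.11; 0.497), Rgs19 (-0.56 ± 0.22; 0.159) and the potassium channel gene Kcnj6 (0.13 ± 0.082; 0.373).

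Markers of cell types and regions were read to check the labelled tissue. Th had 416 ± 19.1 on SHR arrays and 477 ± 67.8 on WKY arrays (log2 difference -0.18 ± 0.081; limma adjusted p = 0.206). The summed signal of the 5 noradrenergic markers on the array ran from 860 to 994 on SHR arrays and from 912 to 1223 on WKY arrays, and 0 of 4 tested passed. All 3 forebrain markers on the array, Neurod6, Emx2 and Lhx2, were below the filter. So were the caudal hindbrain marker Tlx3 (means of 3.36 on SHR arrays and 3.39 on WKY arrays) and the noradrenergic marker Slc6a2 (19.8 and 12.6). Being below the filter thus does not by itself set the regions apart. Over all marker lists 2 of 49 tested genes were higher and 5 lower, against 1.67% and 2.32% of all genes tested. Of the other marker lists, 1 of 6 neuron markers was higher (Snap25; summed signal 7726 to 9120 on SHR arrays and 6902 to 7847 on WKY arrays), 1 of 2 caudal hindbrain markers was lower (Prlh), and 2 of 6 microglia markers were lower (Aif1 and C1qa). In the lists of oligodendrocytes and endothelium 1 of 5 each was lower (Mobp and Vwf), and 1 of 3 choroid plexus markers was higher (Sostdc1). Mobp differed by -0.34 ± 0.072 on its brightest probe set. Its 2 other kept probe sets were unlike each other, at -1.41 ± 0.078 (limma adjusted p = 9.68e-09) and -0.022 ± 0.096 (limma adjusted p = 0.925). A second kept Aif1 probe set differed the other way (0.51 ± 0.18; limma adjusted p = 0.124), and the mean of both Aif1 probe sets did not pass (adjusted p = 0.976). The calls of Snap25, Prlh and Sostdc1 ended with quantile normalization (limma adjusted p = 0.141, 0.101 and 0.115), without a filter (0.112, 0.0838 and 0.0638) and with the covariate (0.584, 0.0933 and 0.339). Those of Mobp and Vwf ended with the covariate alone among these 3 settings (limma adjusted p = 0.143 and 0.206). Cholinergic motor neuron (3 tested), cerebellum (2), astrocyte (6), smooth muscle and pericyte (3) and meningeal markers (4) held 0. The median signal of an array was 44.2 to 49.8 on SHR arrays and 39.6 to 45.7 on WKY arrays.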

How the data were processed

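Amplified RNA (MessageAmp II kit) of each sample was put on a 1-colour array, per the labels. The deposited values are linear intensities, 1 for each probe set of an array, and GCOS 1.2 is the tool named in the submitters' processing notes. The sources used do not say how background was treated or probe sets summarised, and give no detection calls. From the values, the authors scaled every array to one trimmed mean, so arrays were not normalized again.

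Titles gave the strain of each sample, and the unnumbered sample of each strain is called 1. At most 2 probe sets had equal values in any pair of arrays. The 57 control probe sets were left out. Linear models of log2(signal + 16) on strain were fitted by limma 3.58.1 under R 4.3.3, allowing an intensity trend, over the 18846 probe sets kept by the filter. Receptors below the filter were read from the fit of all 31042. The number of arrays limits precision. The model was tested on simulated data. No scan date or slide is given, so no batch could be tested.

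The annotation gave 1 gene symbol to 20826 probe sets, several to 436 and none to 9780. Named were all receptor probe sets, list genes past the threshold or the gene of lowest p where none passed, marker genes past the threshold, and the 2 genes most like each tested receptor probe set. Comparisons between probe sets of a gene, the values of Th and the summed marker signals were added after values were seen. The receptors and lists were chosen with earlier results of these data known. Alternatives were quantile normalization, scaling to the 75th percentile, offsets of 1 and 64, no filter or the 60th percentile as filter, eBayes robust or without its trend, array weights, a replicate block, median signal as a covariate, and arrays left out.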

Additional observations from a re-analysis of the deposited data

Results flagged for a closer look

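Within-strain outliers were sought by the gap of the highest or lowest array to its nearest neighbour, relative to the range of the strain, in 26 groups of 5 arrays. It exceeded the 95% limit of 0.71 in 3 of them, where chance gives about 1 in 20. Adra1a (1369797_at) had 40.2 on SHR 3, with the next SHR array at 12.1. Adra2b (1370567_at) had 12.6 on SHR 4, with the next at 3.91. Drd1 (1368479_at) had 21.7 on SHR 4, with the next at 5.95. All 3 probe sets were below the filter.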

How the results depend on the processing

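None of the 22 alternative settings brought a receptor probe set past the threshold in limma. Adra2b 1380171_at had a positive difference and an unadjusted p below 0.05 in all 20 settings that gave a value (adjusted p 0.111 to 0.356), and Adra2a 1387708_at had an unadjusted p below 0.05 in 16 of 21 (adjusted p 0.0948 to 0.569). The sign did not turn for 6 of the 13 probe sets: these 2, Adra1b, Adra1d, Adra2b 1396853_at and Drd1 1368478_at.

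Small log2 differences turned sign. With the median signal as a covariate they were -0.076 for Drd1 1368479_at, 0.036 for Drd2, -0.20 for Adra2c and 0.082 for Adra2a 1393048_at. Without SHR 2 and SHR 3 they were 0.074 for Adrb1, -0.19 for Adra2c and 0.040 for Adra2a 1393048_at. With quantile normalization they were -0.014 for Adra2b 1370567_at and 0.019 for Adra2a 1393048_at. Leaving out 1 array gave -0.11 to 0.21 for Drd1 1368479_at, -0.33 to 0.027 for Adra1a, -0.065 to 0.11 for Adra2b 1370567_at, -0.022 to 0.20 for Adra2c and -0.047 to 0.036 for Adra2a 1393048_at. The cause was not tested.

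All probe sets past the threshold numbered 803. They were 206 with the covariate, 512 without SHR 2 and SHR 3, and 480 to 976 with 1 array left out (480 without WKY 4, 481 without WKY 5). Median signal itself ran higher on SHR arrays (44.2 to 49.8) than on WKY arrays (39.6 to 45.7), so the covariate overlaps with strain. With it the SE rose for every receptor probe set, as from 0.14 to 0.19 for Adra2a 1387708_at. How much of the loss of calls came with this wider error was not tested. The 3 signalling genes, each read on its brightest probe set, became 0 with the covariate, 1 without SHR 2 and SHR 3 and 2 to 4 with 1 array left out, the last 2 settings being added after the data were seen. The second Gnas probe set passed under all of these, and with the covariate the log2 differences were -0.53 for Ppp1r1b and -0.32 for Gnaz. Same-numbered arrays were not shown to be pairs: the correlation of their deviations was 0.038 to 0.28, and 3 of 5 SHR arrays matched best with their own number, a hint from the data and not the design. The replicate block gave 1214 probe sets, 0 receptors and 3 signalling genes. Low signal limits what could be seen for Adra1a, Adra1d, Adra2b, Adrb1 and Drd1.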
